A study of Mus musculus with 12 samples.

Results

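The hypoxia response genes measured here were 10 genes, Adm, Ankrd37, Bnip3, Egln3, Car9, Pdk1, Hk2, Slc2a1, P4ha1 and Ndrg1, out of 27373 gene names on the array. They were taken by gene name in the scanner output and were represented by 12 of 41174 probes. Pdk1 and P4ha1 had a pair of probes each, and the brighter one stood for the gene. The names were chosen by known biology and by the fold values of these same 6 comparisons, which had been seen, so the fold values below are a description of the 10 genes and no test of them. The question behind the list came from the proposal that MXD acts on hair by relaxing vascular smooth muscle and improving blood flow, and these genes are ones that low oxygen is known to induce.

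The RNA came from whole back skin of male C57BL/6J mice aged 8 weeks, shaved and treated daily with 200 µL of 3% MXD (minoxidil), 10% N-CE (an extract of Notocactus ottonis cells) or VC (the vehicle of propylene glycol, ethanol and water). All groups shared the strain, the shaving and the vehicle. At 1W, 2W and 3W the RNA of 6 mice formed 1 pool for each group, and no second pool was measured. The treated pools met the VC pool of their week on a pair of arrays with exchanged dyes, which gave 6 comparisons on 12 arrays.

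Cells sense oxygen through HIF, a pair of proteins that turns on genes of glucose uptake, anaerobic energy production, vessel tone and mitochondrial removal when oxygen is low. With enough oxygen, prolyl hydroxylases of the Egln family mark the HIF alpha subunit, and Vhl then sends it for degradation. Several HIF targets also depend on other inputs and on the cell type, since skeletal muscle, follicle keratinocytes and endothelium each use some of them at high levels.

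HIF binds a short core, ACGTG or GCGTG, in the DNA near its targets. RefSeq promoter windows of GRCm38.p6 were each 300 bases long, from 250 before to 50 after an annotated start. The windows at hand covered 9 of the 10 genes and held none for Ndrg1. Either core occurred on either strand in the windows of all 9 genes, and in 43.8% of the 32851 windows of all genes. ACGTG was in 19.6% of all windows and GCGTG in 32.4%. Bnip3 had 5 matches, Ankrd37 had 4, P4ha1 had 3, Adm, Hk2 and Slc2a1 had 2 each, and Car9 and Egln3 had 1 each. Of the 2 Pdk1 windows, the first had 2 matches and the second had 0. At least 4 matches were in 3.86% of all windows. A match of 5 letters is a description of the sequence and does not show binding.

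The stretches that hold the matches are shown for the 3 genes called in at least 1 comparison, written 5′ to 3′ on the gene's strand with the cores of either strand in capitals. They lie at chr7:110627552-110627622 on the plus strand for Adm, at chr8:45999851-46000100 on the minus strand for Ankrd37 and at chr7:138909522-138909638 on the minus strand for Bnip3, all on GRCm38.p6.
Adm: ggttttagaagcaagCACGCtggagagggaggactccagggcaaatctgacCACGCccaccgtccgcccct
Ankrd37: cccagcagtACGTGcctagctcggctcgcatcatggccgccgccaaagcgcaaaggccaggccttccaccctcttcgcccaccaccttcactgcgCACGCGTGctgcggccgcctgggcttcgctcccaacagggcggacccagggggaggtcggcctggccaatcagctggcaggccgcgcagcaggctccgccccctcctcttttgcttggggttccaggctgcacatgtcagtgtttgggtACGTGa
Bnip3: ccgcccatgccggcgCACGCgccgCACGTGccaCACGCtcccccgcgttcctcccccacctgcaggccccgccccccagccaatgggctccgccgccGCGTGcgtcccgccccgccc
In Adm both matches read GCGTG on the opposite strand. In Bnip3 the matches on opposite strands at -108 and -107 overlap in CACGTG, which is also the E-box core that other factors bind. In Ankrd37 a GCGTG on each strand overlaps the other, and a further ACGTG begins 6 bases before the start.

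**Figure D1:**
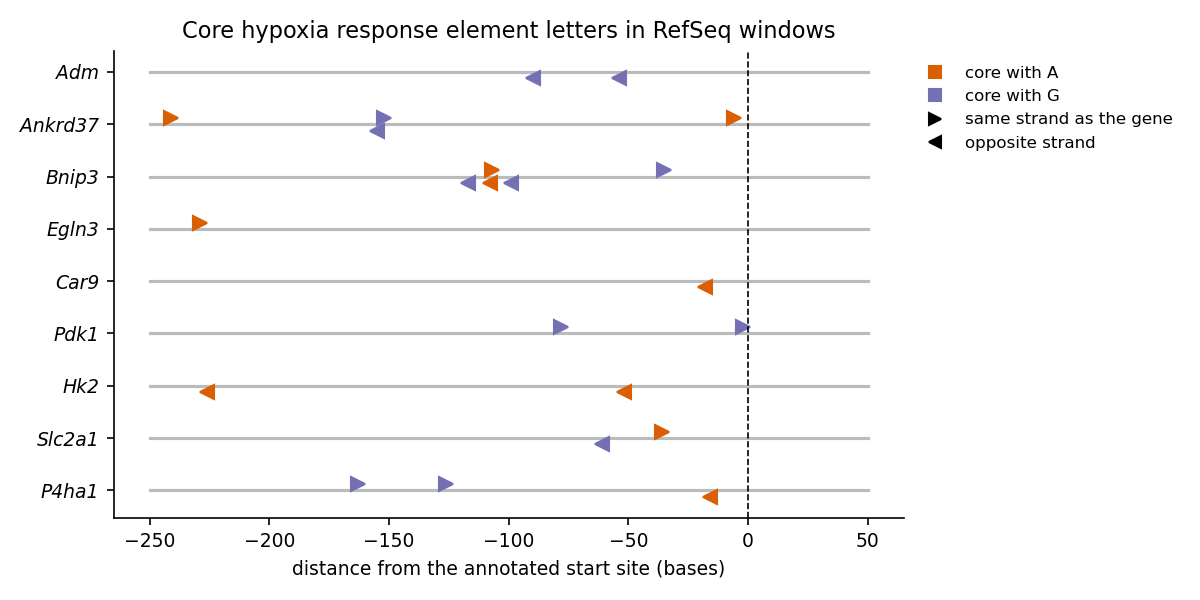
Positions of ACGTG and GCGTG in the RefSeq windows of 9 genes, as distance in bases from the annotated start (dashed line at 0); triangles point right for the gene's own strand and left for the opposite strand. Bnip3 holds 5 matches and Ankrd37 holds 4, while Egln3 and Car9 hold 1 each.

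Ratios are given as log2 of treated over VC, first on the array with the treated RNA in Cy5 and then on the array with it in Cy3, followed by their mean ± SD (n = 2 arrays). The SD covers the measurement and not the mice. A gene was called when the error-model P of the scanner software was under 0.01 on both arrays with the same sign and the mean fold was above 1.5 or under 0.75, which is a log2 above 0.58 or under -0.42. The P describes a spot. All 10 genes were well above background in both groups on both arrays of all comparisons, except for Car9 in the N-CE pool at 3W, which was so on 1 of 2 arrays. The arrays of a dye swap differed in how far they ranked genes alike. Across genes above background, their correlation was 0.64 in MXD at 2W, 0.53 in N-CE at 1W and 0.39 in MXD at 1W, but 0.20 in N-CE at 3W, 0.09 in MXD at 3W and -0.19 in N-CE at 2W. Genes are not independent replicates. The values at N-CE 2W and MXD 3W therefore rest on arrays that ranked genes differently. The median SD of a gene over the dye swap had another order. It was 0.21 in MXD and in N-CE at 2W, and 0.11 to 0.13 in the other comparisons. MXD at 2W thus had both the highest correlation and the largest SD, and MXD at 3W had the smallest SD.

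Of the 60 values, 5 were called. In MXD at 1W, Adm was up-regulated and Ankrd37 down-regulated, which is 1 of 10 in each direction against 1.25% of all measured genes called up and 1.26% called down. In MXD at 2W, Ankrd37 and Bnip3 were down-regulated, 2 of 10 against 10.0% of all genes called down, and 0 of 10 were up-regulated against 6.21%. In MXD at 3W, Ankrd37 was down-regulated, 1 of 10 against 0.286% called down, and 0 of 10 were up-regulated against 0.292%. In N-CE, 0 of 10 genes were called at any week, where the shares of all genes called were 0.542% up and 2.78% down at 1W. These shares were 0.118% and 0.0749% for 2W, and 0.207% and 0.213% for 3W. The list was chosen with these comparisons known, so nothing is read from those shares.

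**Figure D2:**
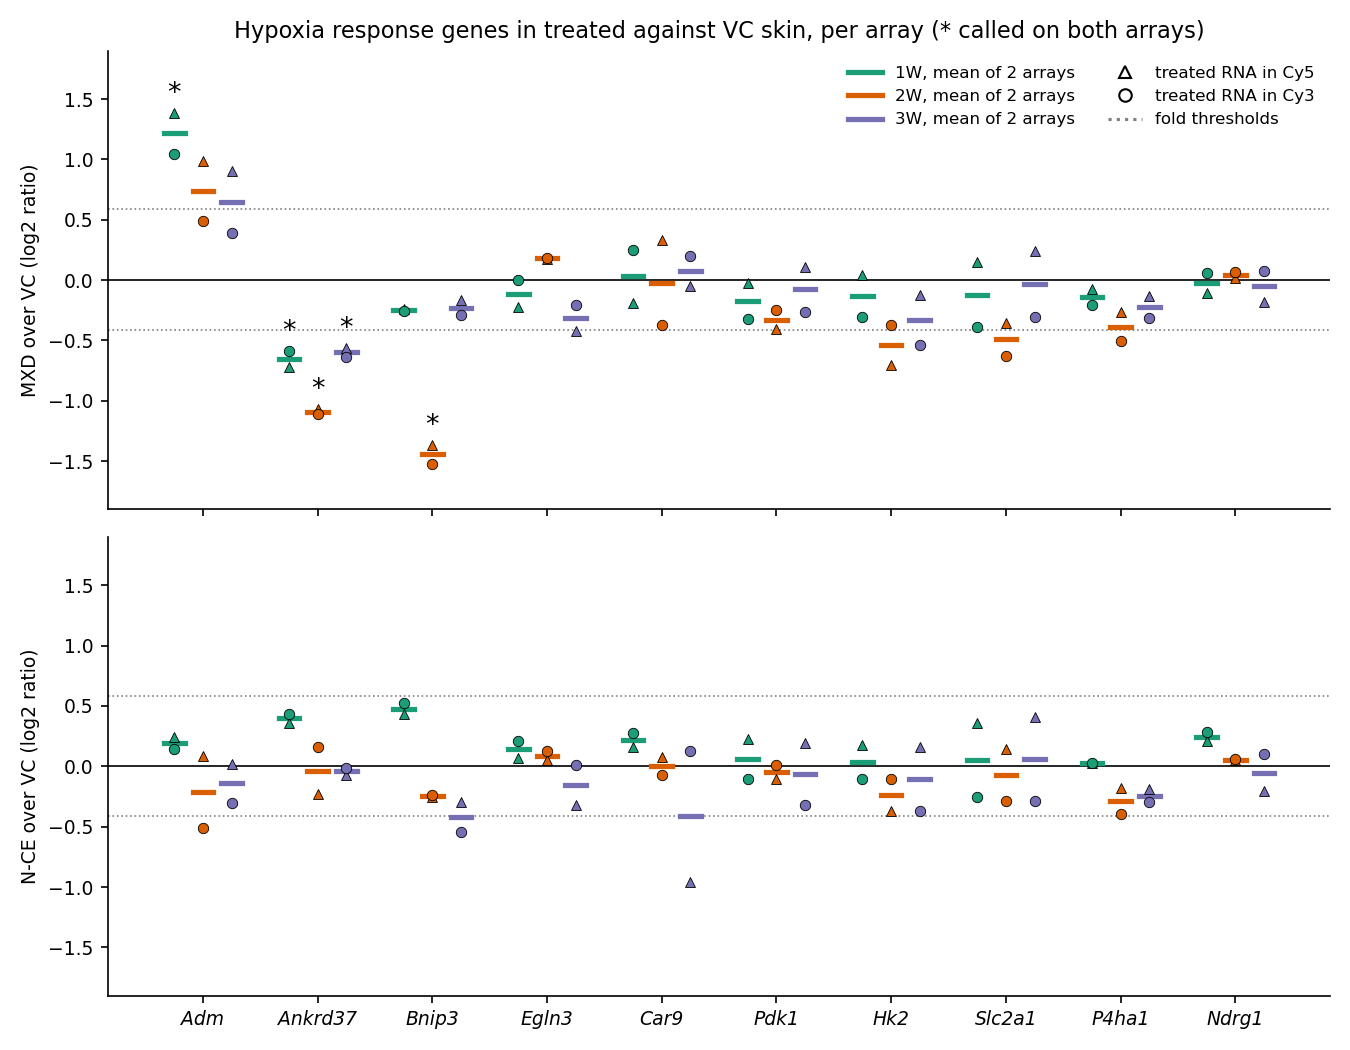
log2 ratio of treated over VC for the 10 genes in MXD (top) and N-CE (bottom); triangles are arrays with the treated RNA in Cy5, circles those with it in Cy3, bars their mean, colours the week, dotted lines the fold thresholds and asterisks the calls. Adm lies above 0 and Ankrd37 below 0 on all 6 MXD arrays, and no gene carries an asterisk in N-CE.

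For 1W, 2W and 3W, the median over the 10 genes was -0.13 ± 0.10, -0.36 ± 0.04 and -0.15 ± 0.10 in MXD, with the SD taken between the medians of both arrays. The N-CE medians were 0.17 ± 0.03, -0.06 ± 0.04 and -0.12 ± 0.11. The medians of all measured genes lay between -0.01 and 0.03. In MXD 23 of 30 values were below 0, and in N-CE 16 of 30 were. Of all measured genes, 47.9% to 51.0% were below 0 per MXD comparison and 47.0% to 49.7% per N-CE comparison. At 1W the N-CE values of all 10 genes were above 0, from 0.03 to 0.48, and 8 of the 10 MXD values were below 0. The N-CE values of Pdk1, Slc2a1 and Hk2 at 1W were means of arrays with opposite signs. Each week's MXD and N-CE comparison shared 1 VC pool, so these counts are not independent of each other.

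Adm encodes adrenomedullin, a secreted peptide that dilates vessels, and is induced by low oxygen and by other stimuli. Its probe lies at chr7:117773088-117773147 of mm9, on the plus strand. In MXD at 1W the processed signal of Adm was 2231 in the treated pool against 853 in VC on the first array and 1972 against 956 on the second. These are log2 ratios of 1.39 and 1.04, a mean of 1.22 ± 0.24 or 2.32-fold, with a P of 8.13e-09 and 3.63e-06. The treated signal was more than that of VC on both arrays.

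At 2W the Adm ratios in MXD were 0.99 and 0.49, a mean of 0.74 ± 0.35 or 1.67-fold. At 3W they were 0.90 and 0.39, a mean of 0.65 ± 0.36 or 1.57-fold. Both means passed the fold threshold, and neither was called because the second array gave a P of 0.0203 at 2W and 0.0609 at 3W. All 6 MXD arrays were above 0, as they were for 8.14% of genes measured in all 3 MXD comparisons. The N-CE ratios of Adm were 0.25 and 0.14 at 1W. They were 0.09 and -0.51 in the second week, and 0.02 and -0.31 in the third. The N-CE means of 0.19, -0.21 and -0.14 had no common sign. In N-CE 0 of the 10 genes lay above 0 on all 6 arrays and 0 lay below, against 0.833% and 0.994% of all genes. The first array read higher than the second in 6 of 6 comparisons, by 0.10 to 0.60, so part of the spread in Adm followed the dye. This dye difference cancels in the mean.

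Ankrd37 encodes an ankyrin repeat protein known as a HIF target. Its probe lies at chr8:47082404-47082463 of mm9, on the minus strand. In MXD at 1W its signal was 275 against 452 in VC and 289 against 433, or ratios of -0.72 and -0.58 with a mean of -0.65 ± 0.10. In the second week the signal was 341 against 717 and 243 against 523, or ratios of -1.07 and -1.11 with a mean of -1.09 ± 0.02. In the third it was 228 against 338 and 206 against 320, or ratios of -0.56 and -0.63 with a mean of -0.60 ± 0.05. The treated signal was below VC on 6 of 6 arrays, as it was for 9.04% of genes, and Ankrd37 was the only one of the 10 genes called at all 3 weeks. The call at 3W was near the threshold, with a P of 0.00909 on the first array. With another background correction, normexp followed by loess, the 3 means were -0.52, -0.81 and -0.42.

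In N-CE, Ankrd37 gave 0.36 and 0.44 at 1W, a mean of 0.40 ± 0.05. It gave -0.23 and 0.16 at 2W, and -0.07 and -0.01 a week later, with a mean of -0.04 at both weeks. The value at 1W was above 0 on both arrays and did not pass the fold threshold.

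Bnip3 encodes a mitochondrial protein that promotes the removal of mitochondria and is induced by HIF. Its probe lies at chr7:146083077-146083136 of mm9, on the minus strand. In MXD at 2W its signal was 7610 against 19588 in VC and 5356 against 15363. The ratios were -1.36 and -1.52, a mean of -1.44 ± 0.11 or 0.368-fold, with a P of 1.2e-08 and 7.71e-10. This was the lowest value among the 60.

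At 1W Bnip3 gave -0.24 and -0.25 in MXD, and at 3W it gave -0.17 and -0.29. These means of -0.25 ± 0.01 and -0.23 ± 0.09 did not pass the fold threshold. In N-CE it gave 0.43 and 0.52 at 1W. It gave -0.25 and -0.23 in the second week, and -0.30 and -0.54 in the third. The last mean, -0.42 ± 0.17 or 0.748-fold, lay just past the fold threshold and was not called, with a P of 0.148 and 0.0101. Its MXD and N-CE arrays did not overlap at 1W or 2W, and the share of all genes without such overlap was not counted. At 1W they had opposite signs, as those of 27.6% of 17759 measured genes did.

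**Figure D3:**
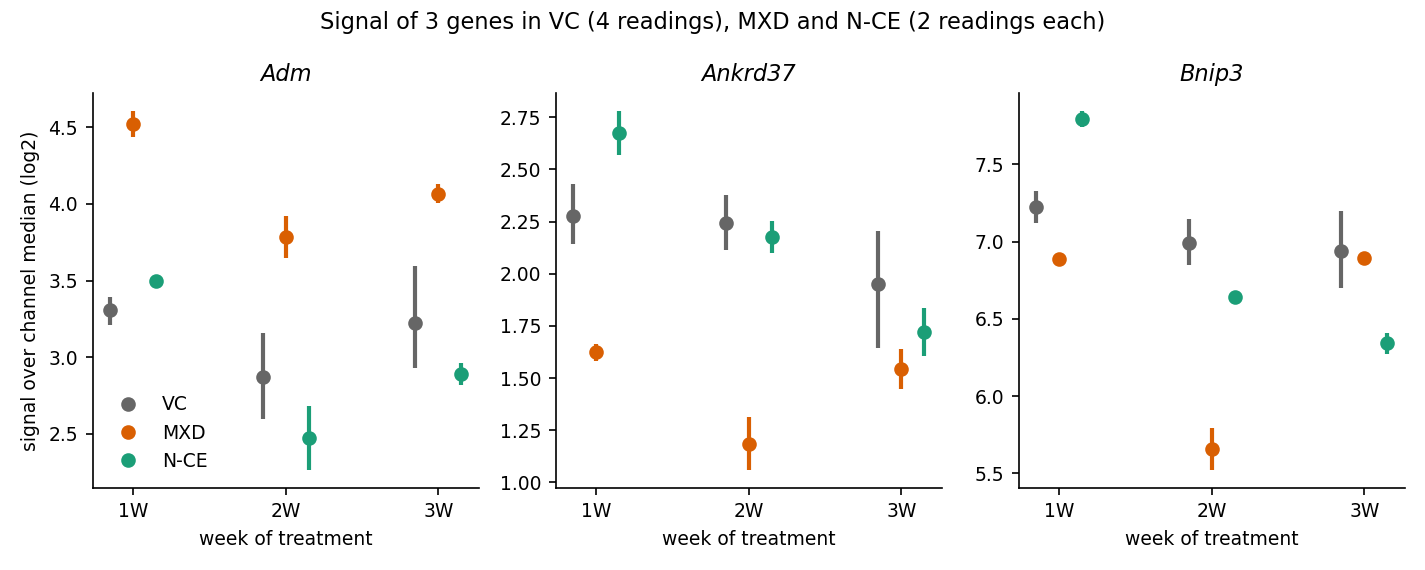
Processed signal of Adm, Ankrd37 and Bnip3 (log2, relative to the median of all transcript probes in the same channel) at 1W, 2W and 3W; points are means and lines span the lowest to highest reading, with 4 readings of the VC pool and 2 of each treated pool. The MXD readings of Adm lie above all VC readings at each week. Those of Bnip3 in MXD lie below all VC readings at 1W and 2W but within their span at 3W. The N-CE readings of Bnip3 lie above all VC readings at 1W and below them at 2W and 3W. Those of Adm in N-CE lie above all VC readings at 1W.

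Single channels gave a further view, since each VC pool was read 4 times in its week. For Adm the VC readings of 1W, 2W and 3W spanned 3.21 to 3.39, 2.59 to 3.15 and 2.93 to 3.60, in log2 units over the channel median. The MXD readings averaged 4.52, 3.78 and 4.07. Both MXD readings lay above the VC span at each week. The N-CE readings of 1W, 3.46 to 3.53, also lay above it, and those of 2W and 3W overlapped it. The share of all genes with readings outside the VC span was not counted.

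For Ankrd37 at 3W the MXD readings ended at 1.64, where those of VC began (1.64 to 2.20), and the N-CE readings were 1.61 to 1.84. The VC pool itself read 0.37 higher on the MXD arrays than on the N-CE arrays at that week, after normexp, loess and quantile scaling of mean intensities. The Ankrd37 ratio at 3W, measured within arrays, was -0.60. At 1W and 2W the same gap was -0.06 and 0.05. Over the 10 genes its median size was 0.06, 0.08 and 0.20 in the order of the weeks, and its largest was -0.91 for Ndrg1 at 3W.

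Egln3 encodes a prolyl hydroxylase that acts on HIF and is itself induced by it. Its means in MXD were -0.11 ± 0.15, 0.18 ± 0.01 and -0.31 ± 0.15 at 1W, 2W and 3W, and in N-CE 0.14 ± 0.10, 0.09 ± 0.05 and -0.15 ± 0.23. It was called in none of the 6 comparisons. Car9, a carbonic anhydrase at the cell surface, was dim, with signals from 25 to 107 over all channels. Its arrays differed in sign in 5 of 6 comparisons, and its lowest mean, -0.42 ± 0.77 in N-CE at 3W, came from arrays at -0.96 and 0.13.

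Pdk1, a kinase that keeps pyruvate out of the mitochondria, gave MXD means of -0.17 ± 0.21, -0.33 ± 0.11 and -0.08 ± 0.27. Its dimmer probe gave -0.15 ± 0.03, -0.14 ± 0.03 and 0.05 ± 0.19, and the pair differed in sign at 3W. In N-CE the brighter probe gave 0.06 ± 0.24, -0.05 ± 0.08 and -0.06 ± 0.36. Neither probe was called in any comparison.

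Hk2, the hexokinase of insulin-responsive and growing tissues, gave MXD means of -0.13 ± 0.25, -0.54 ± 0.23 and -0.33 ± 0.29. At 2W its arrays read -0.70 and -0.38, and the P was 0.00105 on the first and 0.0699 on the second. It passed the fold there and was not called. In N-CE it gave 0.04 ± 0.20, -0.24 ± 0.19 and -0.11 ± 0.38.

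Slc2a1 encodes a glucose transporter that most cells use. In MXD at 2W its arrays read -0.35 and -0.63, a mean of -0.49 ± 0.19, and the P was 0.0869 and 0.00301. In the other 5 comparisons its arrays had opposite signs, with the treated RNA higher in Cy5 and lower in Cy3 each time. The first array exceeded the second by 0.28 to 0.69 in 6 of 6 comparisons. Among 15840 genes above background throughout, 29.4% also kept one dye order in all 6 comparisons, and the median size of the dye difference was 0.19 against 0.54 for Slc2a1.

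P4ha1, the catalytic subunit of the prolyl hydroxylase that stabilizes collagen, was below 0 on 6 of 6 MXD arrays, as Ankrd37 and Bnip3 were, with means of -0.14 ± 0.09, -0.39 ± 0.17 and -0.22 ± 0.13. In N-CE it gave 0.03 ± 0.00, -0.29 ± 0.15 and -0.24 ± 0.07. Its dimmer probe gave -0.57 ± 0.10 in MXD at 2W and -0.53 ± 0.04 in N-CE at 3W. Both of these passed the fold and neither was called. Ndrg1, a stress-responsive gene of differentiating epithelium, stayed between -0.05 and 0.25 in all 6 means. Its highest, 0.25 ± 0.05, was in N-CE at 1W.

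Just inside the lower fold threshold lay Bnip3 in N-CE at 3W and Car9 in N-CE at 3W, and just outside it lay P4ha1 in MXD at 2W at 0.765-fold. Without the P criterion 11 of the 60 values passed a fold. They were 2, 5 and 2 of 10 in MXD from 1W to 3W, where 10.3%, 33.8% and 3.87% of all genes passed, and 0, 0 and 2 of 10 in N-CE, where 10.5%, 3.92% and 6.98% passed. Among them, Adm passed in MXD at all 3 weeks.

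The difference between MXD and N-CE within a week was taken as the difference of their log2 ratios, with an SE from the dye swaps. From 1W to 3W, Adm differed by 1.02 ± 0.18 (SE), 0.95 ± 0.39 and 0.79 ± 0.31. Ankrd37 differed by -1.05 ± 0.08, -1.05 ± 0.20 and -0.56 ± 0.05. Bnip3 differed by -0.72 ± 0.05 at 1W and -1.20 ± 0.08 at 2W, and by 0.19 ± 0.14 at 3W. For the other 7 genes the difference lay between -0.42 and 0.49.

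Over the 10 genes the weekly median differences were -0.21, -0.19 and -0.01, against -0.04, 0.01 and 0.01 over all genes. It was below 0 for 9, 8 and 5 of the 10. No test of it was possible with 1 pool per group, and the SE holds only the spread of the dye swaps.

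**Figure D4:**
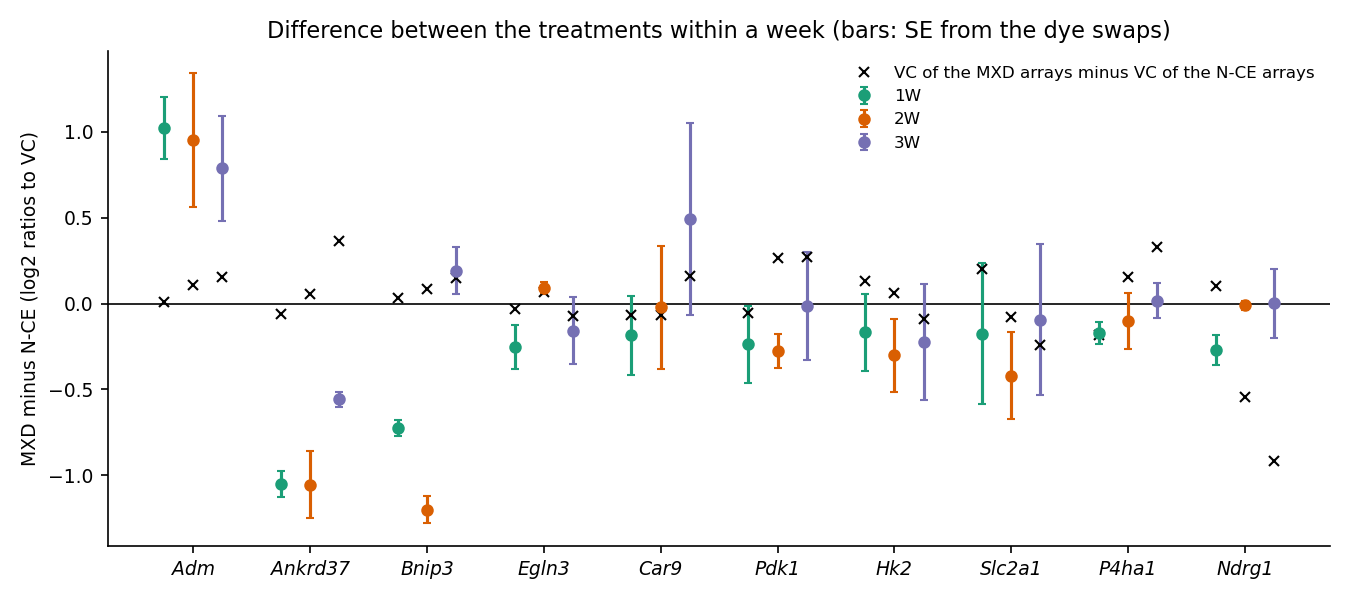
Difference of the MXD and N-CE log2 ratios for the 10 genes at 1W, 2W and 3W (circles, with bars of 1 SE from the dye swaps), beside the difference between the readings of the same VC pool on the MXD and the N-CE arrays (crosses). Adm lies above 0 by 0.79 to 1.02 at each week and Ankrd37 lies below 0 by 0.56 or more. The crosses compare single channels between arrays, whereas the circles compare ratios taken within arrays, so their sizes are not directly comparable. For Ndrg1 at 3W the cross is at -0.91 and the circle at 0.0005.

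The VC levels themselves moved between weeks. P4ha1 went from 3.53 to 2.81 and then 2.80, and its readings at 1W (3.43 to 3.66) did not overlap those at 2W (2.48 to 3.18). Slc2a1 went from 5.42 to 5.19 and 4.66, and its readings at 3W (4.52 to 4.79) did not overlap those at 2W (5.11 to 5.27). Egln3 read 4.44 and 4.42 at 1W and 2W, which did not differ beyond their spread, and 4.93 at 3W. The share of all genes with such gaps between weeks was not counted. The 4 arrays of a week were on 1 slide, so week and slide cannot be told apart.

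Among 14 regulators of the HIF pathway, which include Hif1a, Epas1, Arnt, Vhl and the other Egln genes, 0 were called in any of the 6 comparisons. Of all measured genes, 0.0749% to 10.0% were called per direction in a comparison. The medians of the regulators lay between -0.10 and 0.05, and their single values between -0.77 (MXD at 1W) and 0.49 (MXD at 2W). Hif1a, the alpha subunit that is controlled mainly at the protein, read 0.25, 0.04 and 0.05 in MXD and 0.04, 0.00 and -0.25 in N-CE. Its MXD value at 1W was the mean of arrays at 0.02 and 0.47. Vhl stayed between -0.11 and 0.16. Egln1, the main oxygen sensor, read -0.54 in MXD at 1W and -0.39 at 2W, without a call.

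Among 19 genes of glycolysis and lactate transport, 3 were called in MXD at 1W and 8 at 2W, all down-regulated, and 0 at 3W or in N-CE. Their median was -0.28 ± 0.04, -0.51 ± 0.17 and -0.19 ± 0.07 in MXD and between -0.14 and -0.07 in N-CE. The called genes with the lowest ratios at 2W were Eno3 at -1.62, the enolase of muscle, Pfkm at -1.31, the phosphofructokinase of muscle, and Slc16a3 at -1.17, a lactate exporter. At 1W the same 3 genes were called, at -0.71, -0.81 and -0.66. Of the 19 genes, 18, 15 and 16 were below 0 in MXD at 1W, 2W and 3W, and 13, 15 and 15 in N-CE. Between 47.0% and 51.0% of all measured genes were below 0 in a comparison. The isoforms Eno1 and Pfkl, which most tissues use, read -0.17 and -0.18 in MXD at 1W and 0.14 and 0.12 at 2W, without a call. They were picked after their values were seen, and were among the only 4 of the 19 genes above 0 at 2W. Other genes of the list were lower in MXD, such as Pgk1 (-0.28 at 1W) and Pfkfb3 (-0.90 and called down at 2W).

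Among 27 other measured HIF targets, 4 were up- and 7 down-regulated in MXD at 2W, and 0 were called in the third week. Epo and Nos2 were not well above background. At 2W Plod2, which modifies collagen, was up-regulated at 1.23 and Ero1l, an oxidase of the endoplasmic reticulum, at 1.12, while Pfkfb3, an activator of glycolysis, was down-regulated at -0.90. Vegfa, the vessel growth factor, was called in no comparison and read -0.23, -0.49 and -0.13 in MXD. In N-CE, Adora2b was up-regulated (0.59, or 0.49 and under the fold threshold with normexp and loess) and Ero1l down-regulated (-0.80) at 1W, and Angptl4 was up-regulated (0.65) at 2W.

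Among 14 genes of the adrenomedullin system and vascular tone, 1 was called in MXD at 1W and 9 at 2W, of which 2 were up- and 7 down-regulated. Calcrl, the receptor that binds adrenomedullin, was down-regulated in MXD at 2W at -1.30 ± 0.33, with its partners Ramp1 at -1.14 and Ramp2 at -0.67. Kcnj8 and Abcc9, the subunits of the potassium channel that minoxidil is known to open in vascular smooth muscle, were down-regulated at -1.58 and -1.22. Edn1, the constrictor endothelin, was up-regulated at 0.89. Kcnj8 was also the gene called at 1W, at -0.65. Ptgis was called at 2W but was above background in the MXD pool on only 1 of 2 arrays. In N-CE 0 of these genes were called at any week.

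Related enzymes and transporters of the members were called down in 4 of 18 at 1W and 5 of 19 at 2W in MXD, with 2 of 19 up at 2W, and 0 in the other comparisons. They included Pdk4, the kinase of fasted muscle, at -1.08 at 1W, and Slc2a4, the insulin-responsive glucose transporter of muscle and fat, at -0.63 at 1W and -1.36 at 2W. The lists shared genes. Pfkfb3 stood among both glycolysis and other HIF targets, Edn1 among both other HIF targets and vascular tone, and 7 of the related enzymes and proteins (Bnip3l, Car12, Egln1, Egln2, Hk1, P4ha2 and Slc2a3) also stood in another list.

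**Figure D5:**
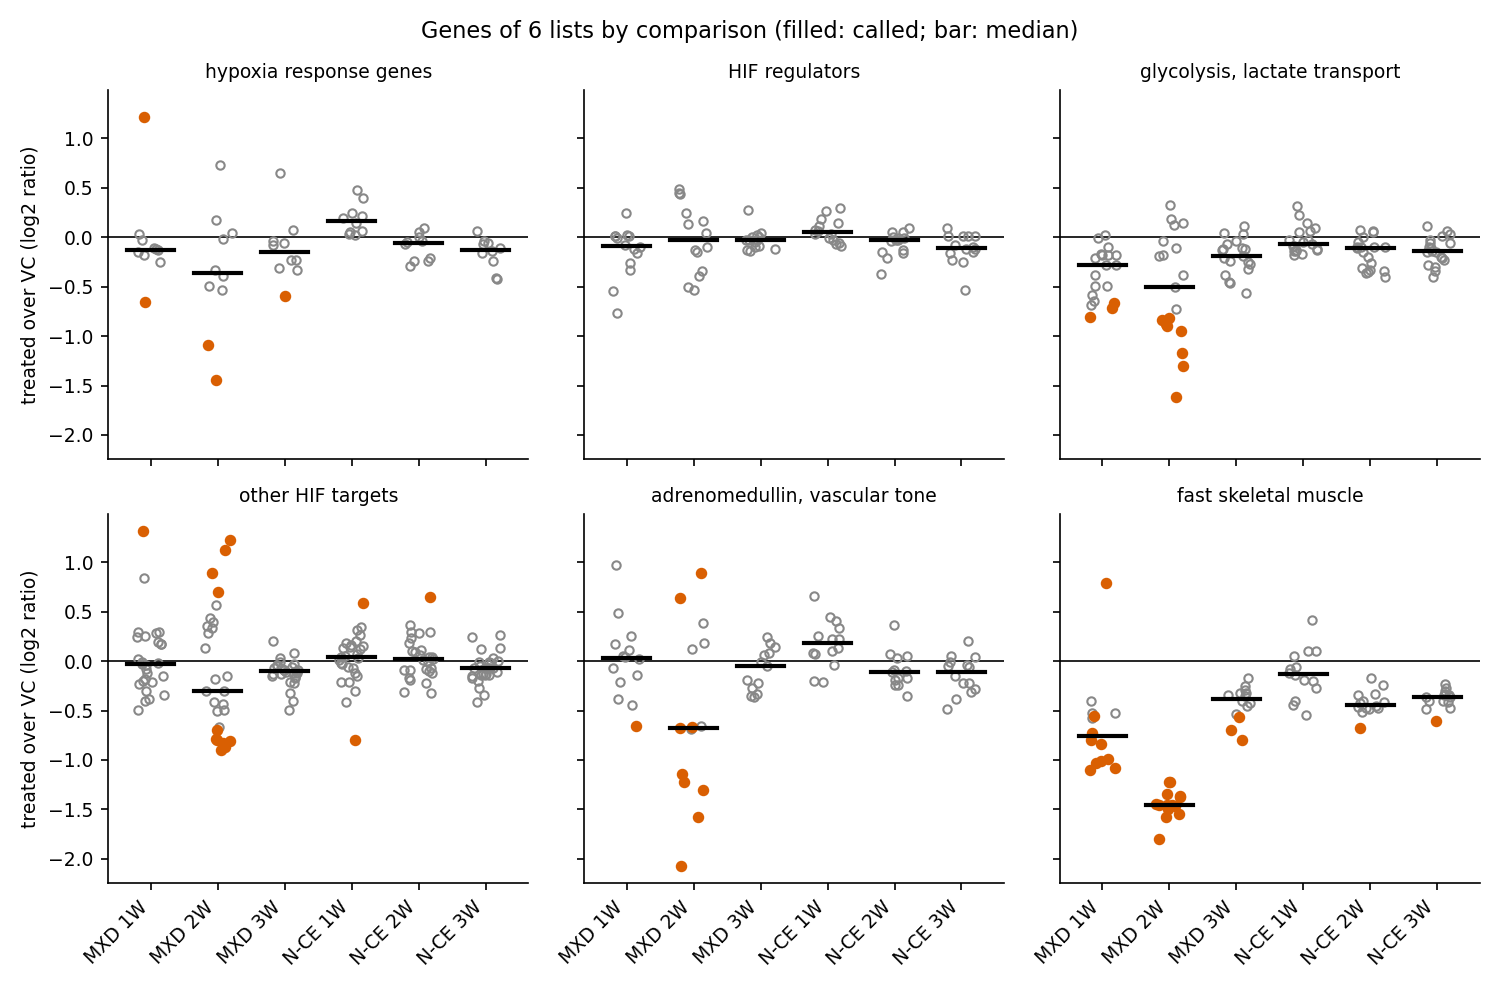
log2 ratio of treated over VC in the 6 comparisons for the genes of 6 lists; each circle is a measured gene, filled where it was called, and bars are medians. All 14 fast muscle markers are filled and below 0 in MXD at 2W, where the hypoxia response genes have a median of -0.36, and the HIF regulators have no filled circle.

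Markers of other cell types also changed in some of the comparisons. Of 14 fast skeletal muscle markers, 9 were down-regulated and 1 up-regulated in MXD at 1W. All 14 were down-regulated at 2W, and 3 were at 3W, with medians of -0.76, -1.46 and -0.38. In N-CE 0, 1 and 1 were down-regulated, with medians of -0.13, -0.44 and -0.36. All 14 were above background. Their summed signal at 2W was 510723 and 294773 in MXD against 1184490 and 920600 in VC. In MXD the muscle median, the glycolysis median and the ratios of Ankrd37 and Bnip3 were all lowest at 2W. So were the medians of endothelial (-0.49), vascular smooth muscle (-0.64), adipocyte (-0.79) and fibroblast markers (-0.70). Those of hair keratins (1.32), melanocyte (1.26) and proliferation markers (0.95) were highest then. At 2W 33.8% of all genes passed a fold in MXD, against 10.3% at 1W and 3.87% at 3W. The part of muscle RNA in the down-regulation of Ankrd37, Bnip3 and the glycolytic genes was not tested. In bulk tissue, fewer cells of a type and less RNA per cell cannot be told apart.

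Keratins of the hair fibre and its inner sheath were up-regulated in MXD, 4 of 12 at 1W and 12 of 12 at 2W (medians of 0.61 and 1.32), and 12 of 12 were down-regulated in N-CE at 1W (-2.60). Among 6 wound and stress markers, the MXD pool had 4 up-regulated at 1W, and 4 up- and 1 down-regulated at 2W. The latter was Sprr2d, which was up-regulated at 1W (3.11) and down-regulated at 2W (-1.56, or -0.93 with normexp and loess). Endothelial markers were called down in 3 of 10 in MXD at 2W (median -0.49) and in 0 of 10 in the other 5 comparisons. Vascular smooth muscle and pericyte markers were called down in 1 of 10 in MXD at 1W and 5 of 10 at 2W (median -0.64). The marker called at 1W was Des (-0.71), which was also the lowest at 2W (-1.46). The fast skeletal muscle medians in the same MXD comparisons were -0.76 and -1.46. Whether the Des signal came from vessels or from skeletal muscle was not tested. At 2W 4 of the 10 vascular smooth muscle and pericyte markers were above 0, up to 0.55. At 1W, when Adm was up-regulated, the endothelial and smooth muscle medians were 0.02 and -0.09. In MXD at 2W, 6 of 9 adipocyte and 3 of 8 fibroblast markers were down-regulated, 8 of 9 proliferation markers were up-regulated, and 1 of 10 neutrophil and macrophage markers was up- and 3 down-regulated. Melanocyte markers were up-regulated in MXD at each week, 4 of 7, 8 of 8 and 6 of 8 from 1W to 3W, with medians of 0.72, 1.26 and 0.70. In N-CE at 1W, 6 of 7 melanocyte, 8 of 9 proliferation and 2 of 4 erythrocyte markers were down-regulated. Neutrophil and macrophage markers were up-regulated in 4 of 11 in MXD at 1W. Epidermal keratinocyte markers, which check the tissue label, were above background in every comparison (9 read in MXD at 1W and 10 in the others) and were called in at most 4 of 10 in any comparison, which was in MXD at 2W. The part of these cell types in the values of the 10 genes was not tested.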

How the data were processed

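The data were 12 two-colour Agilent arrays of pooled whole-skin RNA. The authors deposited, for each array, the output of Agilent Feature Extraction, recorded as version 12.0.3.1 per the file headers and 11.0.1.1 in the submitters' processing notes. It holds log10 ratios (Cy5 to Cy3) that the authors obtained with background subtraction and LOWESS, the p-value that the authors' error model gave each spot, and the deposited raw and processed signal intensity of each channel. The series matrix holds log10 ratios that the authors deposited, and at the probes of the 10 genes it equals the array output to within 3.69e-07. Probe positions are on mm9.

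Here ratios were oriented as treated to VC and converted to log2, control spots and outlier-marked spots (143 to 355 per array, 0 of them at the 10 genes) were left out, and spots of a probe and then the arrays of a dye swap were averaged. The brightest probe, by mean processed intensity over all channels, stood for a gene. Genes well above background in at least 1 array of a group were counted as measured, 17453 to 18803 per comparison. Per array, 57.0% to 65.0% of transcript spots exceeded background well in Cy3 and 61.3% to 69.6% did in Cy5, 0 were saturated, and the number of arrays limits the precision. Levels are log2 processed signals minus the median of their channel.

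Each group was 1 pool, so no test across samples was made. The 10 genes and all lists were chosen with earlier results of these data known, and lists are described by counts and medians. Named were all 10 genes in all comparisons, from each further list up to 3 called genes with the largest mean ratio in a comparison, and genes that play a stated part in the pathway, the last chosen after their values were seen. Alternatives were normexp (offset 50) with loess in limma 3.58.1 under R 4.3.3, each array alone, centring on bright probes, a filter on dim probes, all probes of a gene, outlier spots kept, the matrix values, folds without P and symmetric folds. Other steps used pandas 2.3.3 and numpy 2.4.6 under Python 3.11.15. One result among the other HIF targets is not reported here.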

Additional observations from a re-analysis of the deposited data

Results flagged for a closer look

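At 1W, 4 of the 10 genes were below 0 on both MXD arrays and above 0 on both N-CE arrays. Some of these values were close to 0. Egln3 read -0.003 on the MXD array with the treated RNA in Cy3. P4ha1 averaged 0.03 in N-CE, and 0.0004 with the arrays centred on bright probes. The difference between MXD and N-CE was -1.05 for Ankrd37, -0.72 for Bnip3, -0.25 for Egln3 and -0.17 for P4ha1 on the log2 scale, and it was not tested, as each group was 1 pool and both shared the VC pool. Opposite signs on all 4 arrays occurred for 27.6% of 17759 measured genes at 1W. The later weeks had 4.44% and 9.01% of such genes, with 0 of the 10 among them.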

How the results depend on the processing

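The 5 calls kept their sign under every alternative run: Adm in MXD at 1W ranged from 1.04 to 1.39, Bnip3 in MXD at 2W from -1.52 to -1.36, and Ankrd37 in MXD from -0.72 to -0.52 at 1W, -1.13 to -0.81 at 2W and -0.63 to -0.42 at 3W. Without the P criterion, 5 genes passed in MXD at 2W in place of 2, 2 in MXD at 3W in place of 1, and 2 in N-CE at 3W in place of 0, since that criterion is what was dropped. With normexp and loess the median of the 10 genes in N-CE at 1W was 0.0947. With each array taken alone, the medians ranged from -0.231 to -0.0917, -0.37 to -0.31 and -0.28 to -0.13 in MXD at 1W, 2W and 3W, and from 0.18 to 0.22, -0.09 to -0.03 and -0.29 to -0.13 in N-CE. The counts of calls were then 2 and 2 in MXD at 1W, 3 and 4 at 2W, 2 and 2 at 3W, and 0 in N-CE. Centring on bright probes moved a value by at most 0.04. Single arrays turned the sign of 12 of 60 values each, and normexp of 3, which were Car9 in MXD at 1W and 2W and Hk2 in N-CE at 1W. The cause was not tested.

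Each group was 1 pool read on 2 arrays, so the spread between mice is unknown. A slide held the MXD and N-CE arrays of 1 week, so their difference within a week is also within a slide. A fit over the treated pools of all 3 weeks with the slide as a block was not run. Car9 was close to background.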
